A study of Mus musculus with 6 samples.

Results

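The proximal tubule protein uptake genes are 8 genes that carry filtered protein from the tubular lumen into the cell: *Lrp2*, *Cubn*, *Amn*, *Dab2*, *Clcn5*, *Fcgrt*, *Ocrl* and *Lrpap1*. Members were chosen by name, as the array probes whose gene name in the scanner files is one of these symbols. The rule itself uses no measured value, but the genes were picked with earlier results of these data known. The 8 genes had 21 probes, of which 18 were bright enough to be tested, and all 8 genes had at least 1 tested probe among the 15483 genes tested on the array. Gene expression was measured in renal cortex of male mice aged 16 weeks on 6 one-colour Agilent arrays, 3 per group, each hybridised with Cy3-labelled cRNA.

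By their labels, 3 arrays held RNA of db/m mice and 3 held RNA of db/db mice. db/db mice carry both copies of the db mutation of the leptin receptor on the C57BLKS/J background and are a model of type 2 diabetes with kidney disease, and db/m mice carry 1 copy and are not diabetic. The design text deposited with the arrays and the study's text describe another comparison, of db/db mice given Huangqi decoction (HQD), a herbal decoction, for 8 weeks with db/db mice that were not. Both descriptions cannot hold for the same arrays, and the dose of HQD is not named for them. The groups are therefore called labelled db/m and labelled db/db throughout, and a difference below 0 means a lower level in labelled db/m. The brightest *Lepr* probe overlapped between the groups (0.42, adjusted p = 0.447 by limma), and the db mutation changes splicing, so that a probe outside the affected exon checks neither description.

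Cells of the proximal tubule take up albumin, vitamin carriers, hormones and light chains that pass the glomerular filter. Megalin (*Lrp2*) and cubilin (*Cubn*) bind them at the brush border, clathrin-coated pits carry the receptors inwards, acid endosomes release the cargo, and lysosomes break it down while the receptors return to the surface. Loss of megalin, cubilin, amnionless, the exchanger ClC-5 or the phosphatase OCRL is known to give low molecular weight proteinuria or albuminuria.

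None of the 8 genes differed between the groups past an adjusted p of 0.05 in limma, as was so for 0% of all genes tested, and none had an unadjusted p under 0.05, which 15.2% of all genes had. With the brightest tested probe standing for each gene, 7 of 8 had the lower mean in labelled db/m, by 0.043 to 0.47 on the log2 scale, and *Ocrl* had the higher mean. Lower means were also the more common direction on the whole array, at 56.6% of all genes tested and 75.6% of those in the brightest quartile of tested probes, which held 7 of the 8. The arrays within labelled db/m differed more than the group means did: replicate 1 was the lowest of the 6 arrays for 7 of 8 genes, while replicate 2 lay above both other labelled db/m arrays for 7 of 8.

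Of the 18 tested probes, 5 span more genomic bases than their own 60, so that each crosses a splice junction and reads joined exons. They are shown because they place the signal in spliced transcripts, and 1 of them, in *Dab2*, had groups that did not overlap. Each is printed 5' to 3' as the scanner files give it, on the transcript's strand, with its span on the mm9 build named in the files.
*Lrp2* A_51_P174921, minus strand, chr2:69345884-69346029: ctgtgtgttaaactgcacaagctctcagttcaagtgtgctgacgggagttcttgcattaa
*Amn* A_51_P343350, plus strand, chr12:112514095-112514243: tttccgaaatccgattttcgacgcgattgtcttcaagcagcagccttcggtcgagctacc
*Dab2* A_55_P2639170, plus strand, chr15:6366964-6368258: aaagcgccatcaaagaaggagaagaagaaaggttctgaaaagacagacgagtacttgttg
*Dab2* A_52_P17534, plus strand, chr15:6374197-6374640: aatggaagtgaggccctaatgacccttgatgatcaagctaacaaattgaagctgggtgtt
*Lrpap1* A_52_P583973, minus strand, chr5:35435982-35437504: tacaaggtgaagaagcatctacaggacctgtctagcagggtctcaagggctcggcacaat

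All 8 genes had an entry in the RefSeq promoter table of build GRCm38.p6, with 10 start sites in all. The 250 bases before the start were searched on both strands for the GC box GGGCGG, a binding motif of Sp1-type factors. A GC box was found before 5 of the 10 start sites and in 32.7% of all 32851 promoters. The promoters of both receptors are shown, with the matches in capitals, because megalin and cubilin act together at the brush border and their promoters differ in base composition. They are printed 5' to 3' on the gene's strand.
*Lrp2*, minus strand, chr2:69586030-69586279: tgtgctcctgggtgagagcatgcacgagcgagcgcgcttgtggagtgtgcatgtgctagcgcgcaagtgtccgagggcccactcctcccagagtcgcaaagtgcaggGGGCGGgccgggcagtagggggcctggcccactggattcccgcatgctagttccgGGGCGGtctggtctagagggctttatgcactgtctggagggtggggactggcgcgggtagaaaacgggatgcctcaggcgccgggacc
*Cubn*, minus strand, chr2:13491877-13492126: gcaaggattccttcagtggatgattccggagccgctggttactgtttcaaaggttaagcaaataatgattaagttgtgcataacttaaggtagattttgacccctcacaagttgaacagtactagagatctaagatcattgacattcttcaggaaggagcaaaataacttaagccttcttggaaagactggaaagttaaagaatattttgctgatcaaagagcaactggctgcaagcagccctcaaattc
The *Lrp2* promoter held 2 GC boxes at a GC content of 66.4%, and the *Cubn* promoter held none at a GC content of 39.6%. No match says only that these letters are not in this window.

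Levels are given as log2 of the background-subtracted signal relative to the 75th percentile of the same array, so that a level of 1 is double that array's percentile. Levels of different probes are not compared, because probes differ in how strongly they bind.

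*Lrp2* encodes megalin, the large scavenger receptor of the brush border. Its brightest probe (A_52_P285470, chr2:69262566-69262625, mm9) read 7.00, 7.38 and 7.10 on labelled db/m replicates 1 to 3 and 7.34, 7.55 and 7.42 on labelled db/db replicates 1 to 3. Labelled db/m replicates 1 and 3 lay below every labelled db/db array and replicate 2 lay among them, so that the groups overlapped. The difference was -0.27 (SE 0.14, 95% interval -0.60 to 0.053, n = 3 per group, adjusted p = 0.329 by limma). The signal on this probe reached 162119 intensity units, and no spot of an uptake probe was flagged as saturated.

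The other 4 *Lrp2* probes did not share 1 direction. Probe A_66_P137745 lies next to the brightest one, at chr2:69262394-69262451, and read 6.71, 7.20 and 6.90 in labelled db/m against 6.67, 6.90 and 7.02 in labelled db/db, a difference of 0.076 (SE 0.16, 95% interval -0.32 to 0.47). The junction probe A_51_P174921 differed by -0.17 (SE 0.18) and A_55_P2099677 by -0.14 (SE 0.18), while A_55_P2871373 differed by 0.25 (SE 0.15). All 5 probes had overlapping groups, and megalin mRNA showed no direction that its probes shared.

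*Cubn* encodes cubilin, the receptor for intrinsic factor with vitamin B12, albumin and transferrin, which has no membrane anchor of its own. Its single probe (A_55_P2047639, chr2:13197978-13198037) read 5.58, 6.13 and 5.74 in labelled db/m and 5.87, 6.11 and 5.95 in labelled db/db. Labelled db/m held both the lowest arrays and the highest one. The difference was -0.16 (SE 0.17, 95% interval -0.56 to 0.23, adjusted p = 0.591 by limma), and it was 0.0087 after quantile normalization and 0.038 relative to 20 proximal tubule markers.

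*Amn* encodes amnionless, the membrane partner that brings cubilin to the surface. Its single probe, a junction probe (A_51_P343350), read 4.14, 4.90 and 4.31 in labelled db/m and 4.76, 4.90 and 4.80 in labelled db/db. Labelled db/db arrays lay within a narrow range (SD 0.072) and labelled db/m arrays did not (SD 0.398). The difference was -0.37 (SE 0.20, 95% interval -0.85 to 0.11, adjusted p = 0.357 by limma), and labelled db/m replicate 2 was as high as the highest labelled db/db array.

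*Dab2* encodes the clathrin adaptor that binds the tail of megalin. Its brightest probe (A_51_P157994, chr15:6389424-6389483) read 3.58, 4.54 and 4.01 in labelled db/m and 4.30, 4.71 and 4.53 in labelled db/db. The difference of -0.47 (SE 0.25, 95% interval -1.07 to 0.13, adjusted p = 0.346 by limma) was the widest among the brightest probes of the 8 genes, with the groups overlapping through labelled db/m replicate 2. It was -0.95 between the 2 arrays of different groups that share a slide, replicate 1 of labelled db/m and replicate 3 of labelled db/db.

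The junction probe A_52_P17534 of *Dab2*, whose sequence stands above, read 0.81, 1.36 and 0.97 in labelled db/m and 1.47, 1.73 and 1.41 in labelled db/db. Every labelled db/m array was below every labelled db/db array, with a difference of -0.49 (SE 0.18, 95% interval -0.91 to -0.072, adjusted p = 0.251 by limma). Its unadjusted p was under 0.05 in limma and above it in 6 of 20 other settings, in which the difference ran from -0.68 to -0.29. These 6 were the methods' t-test, the slide as a block (-0.61, 1 array against 1), the proximal tubule markers as scale, and the omission of replicate 1 or 3 of labelled db/m or replicate 2 of labelled db/db. Of the other probes, A_55_P2639170 differed by -0.20 (SE 0.19) and A_52_P560077 by 0.061 (SE 0.18), both with overlapping groups.

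*Lrpap1* encodes the receptor-associated protein, a chaperone that keeps megalin from binding ligands in the endoplasmic reticulum. Its brighter probe (A_66_P116915, chr5:35435649-35435708) read 5.52, 6.12 and 5.76 in labelled db/m and 5.998, 6.17 and 5.95 in labelled db/db, a difference of -0.24 (SE 0.17, 95% interval -0.65 to 0.17, adjusted p = 0.464 by limma). The junction probe A_52_P583973 read 4.94, 5.52 and 5.12 against 5.43, 5.65 and 5.39, a difference of -0.30 (SE 0.17). Both probes showed the same order of arrays within labelled db/m, with replicate 2 the highest and replicate 1 the lowest.

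*Clcn5* encodes ClC-5, the chloride and proton exchanger of early endosomes that is mutated in Dent disease. Its brightest probe (A_52_P151974, chrX:6730950-6731009) read 2.36, 2.88 and 2.53 in labelled db/m and 2.44, 2.71 and 2.75 in labelled db/db. The difference was -0.043 (SE 0.17, 95% interval -0.45 to 0.36, adjusted p = 0.900 by limma), and it changed sign under 6 of the other settings tried.

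The second tested *Clcn5* probe (A_55_P2180301, chrX:6736595-6736654) read 1.75, 1.95 and 1.81 in labelled db/m and 2.31, 2.32 and 2.12 in labelled db/db. All labelled db/m arrays lay below all labelled db/db arrays, with a difference of -0.42 (SE 0.12, 95% interval -0.69 to -0.14, adjusted p = 0.240 by limma). Its unadjusted p was under 0.05 and above it in 2 of 20 other settings. With the slide as a block, which rests on 1 array against 1, the difference stayed at -0.38, and relative to the proximal tubule markers it was -0.21 with overlapping groups. Both probes were well above background on all 6 arrays, and whether their differences differ from each other was not tested. The remaining probe, A_66_P129705, was well above background on 0 of the 6 arrays.

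*Ocrl* encodes the inositol polyphosphate 5-phosphatase of clathrin pits and endosomes that is mutated in Lowe syndrome. Its brightest probe (A_55_P2009507, chrX:45318853-45318912) read 2.004, 1.94 and 2.10 in labelled db/m and 1.89, 1.98 and 1.84 in labelled db/db, a difference of 0.11 (SE 0.10, 95% interval -0.14 to 0.36, adjusted p = 0.565 by limma) that was -0.076 after median centring. *Ocrl* was the 1 gene of the 8 with its higher mean in labelled db/m.

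A dim *Ocrl* probe (A_52_P72768, chrX:45268332-45268391) read -3.61, -2.93 and -3.59 in labelled db/m and -4.07, -4.15 and -3.92 in labelled db/db. It was well above background on all 3 labelled db/m arrays but on 1 labelled db/db array, and so passed the filter only through the group where it was higher, which makes its difference of 0.67 a description and no test. With dim arrays set to the lowest signal that was well above background the difference was 0.48, with quantile normalization 0.46, with the slide as a block 0.30 and with normexp background correction 0.26. The 2 remaining *Ocrl* probes, A_55_P2721895 and A_51_P159492, were too dim to be tested.

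*Fcgrt* encodes the heavy chain of the neonatal Fc receptor, which returns IgG and albumin from endosomes. Its single probe (A_51_P161890, chr7:52350556-52350615) read 3.73, 4.13 and 3.85 in labelled db/m and 4.10, 4.17 and 4.14 in labelled db/db. Replicates 1 and 3 of labelled db/m lay below the narrow labelled db/db range (SD 0.036) and replicate 2 inside it. The difference was -0.23 (SE 0.13, 95% interval -0.54 to 0.084, adjusted p = 0.374 by limma).

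**Figure D1:**
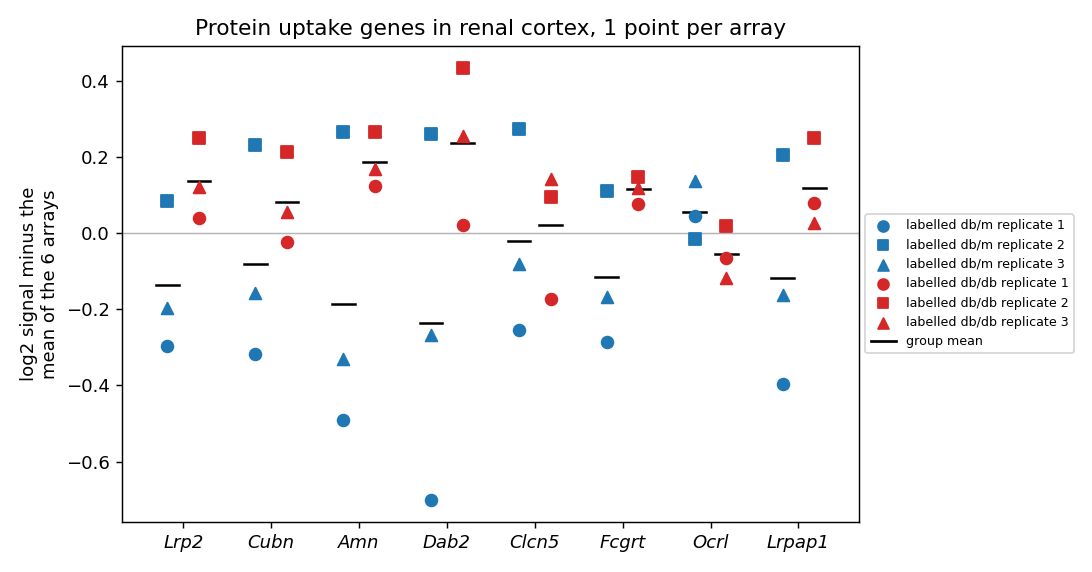
Log2 signal of the brightest tested probe of each uptake gene on each of the 6 arrays, minus the mean of the 6 arrays (vertical axis), by gene (horizontal axis). Blue points are labelled db/m, red points labelled db/db, the shape gives the replicate and the bar the group mean. Labelled db/m replicate 1 (blue circle) is the lowest point for 7 of 8 genes and labelled db/m replicate 2 (blue square) lies among or above the red points for all genes.

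**Figure D2:**
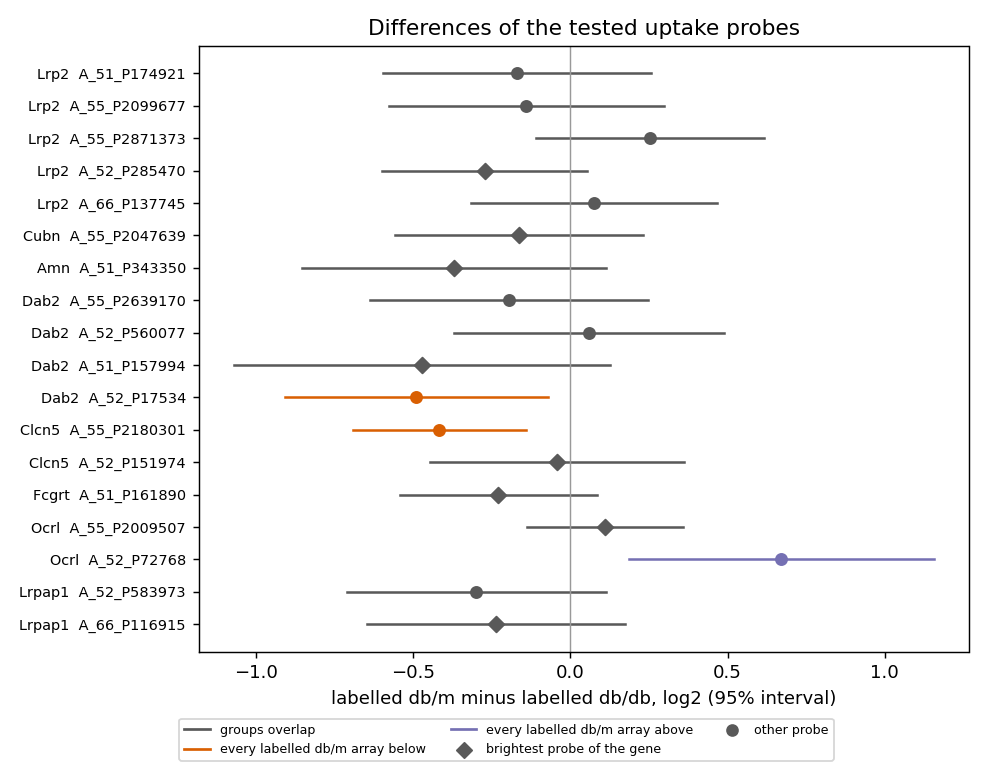
Log2 level in labelled db/m minus that in labelled db/db, with its 95% interval (horizontal axis) for the 18 tested probes (vertical axis), from limma. Diamonds are the brightest probe of each gene and colours mark probes whose groups do not overlap. Probes of *Lrp2* lie on both sides of 0, and the 3 coloured probes belong to *Dab2*, *Clcn5* and *Ocrl* and are not the brightest of their genes. The coloured *Ocrl* probe passed the filter only through labelled db/m.

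At the level of genes, 0 of 8 had an unadjusted p under 0.05 in limma, against 15.2% of all genes tested in either direction and 9.77% with the lower mean in labelled db/m. After adjustment 0 of 8 passed, as did 0% of all genes. The study's screen, which asks for a change of 2-fold or more in either direction beside an unadjusted p under 0.05, took 0 of 8 genes and 0.898% of all. The groups did not overlap for 0 of 8 genes, against 22.9% of all. At the level of probes, 17 of the 18 were well above background on all 6 arrays, and of these 2 had an unadjusted p under 0.05 and groups that did not overlap, against 16.7% and 24.1% of all probes of that kind. The remaining one, a dim *Ocrl* probe, entered the test only through labelled db/m, where it was higher, and is not counted. The smallest p that an exact two-sided permutation test can give with 3 arrays against 3 is 0.1, so that single genes could not pass 0.05 in it.

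The median difference of the 8 genes was -0.23. It was -0.045 over all genes tested, -0.13 over the brightest quartile and -0.23 over the 20 proximal tubule markers, of which 17 had the lower mean in labelled db/m. Renal cortex is a mixture, and fewer proximal tubule cells and less RNA of these genes per cell cannot be told apart in it. Both defining markers of the labelled tissue were bright: *Slc34a1*, the brush border phosphate carrier, differed by -0.37 (SE 0.21) and *Slc5a2*, the glucose carrier SGLT2, by -0.55 (SE 0.38), with overlapping groups.

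The uptake genes and the proximal tubule markers followed the same order of arrays. Centred on the mean of the 6 arrays, the median of the 8 genes was -0.31, 0.22 and -0.17 on labelled db/m replicates 1 to 3 and 0.029, 0.23 and 0.12 on labelled db/db replicates 1 to 3. The median of the proximal tubule markers was -0.42, 0.20 and -0.15, then 0.083, 0.20 and 0.11. Labelled db/m replicate 2 stood with the labelled db/db arrays in both sets, and replicates 1 and 3 of labelled db/m stood below all labelled db/db arrays for 6 of the 8 genes. This order was not particular to these sets. Levels summed over the lysosomal, clathrin, acidification and regulator lists described below followed it too. Summed podocyte and distal convoluted tubule markers were lowest on labelled db/m replicate 1 (14.8 and 28.7) and highest on replicate 2 (34.3 and 57.6). Summed thick limb and macrophage markers were highest on replicate 1 (622 and 39.7).

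Markers of other cell types also differed in their means. The counts that follow stand beside 15.2% of all genes with an unadjusted p under 0.05 in limma, and 9.77% with the lower mean in labelled db/m. Of 10 macrophage markers, 5 had such a p, all higher in labelled db/m. Their list had a median difference of 0.36, with *Adgre1* at 0.37 (SE 0.11). *Slc12a3*, the salt carrier that defines the distal convoluted tubule, differed by -0.91 (SE 0.15, adjusted p = 0.240 by limma), with 2.40, 2.67 and 2.16 in labelled db/m and 3.25, 3.42 and 3.29 in labelled db/db. It was the lowest of the 5 markers of that segment, which ran up to -0.032 with a median of -0.19. Of these 5, 1 had an unadjusted p under 0.05. Of the collecting duct markers 2 of 9 had an unadjusted p under 0.05, both lower, with a median of -0.065, and of the thick limb (6), endothelial (8) and fibroblast (7) markers 0 had one, with medians of 0.12, 0.12 and 0.030. The defining markers *Umod* of the thick limb (-0.090), *Aqp2* of the collecting duct (0.48), *Pecam1* of the endothelium (0.28) and *Col1a1* of fibroblasts (-0.080) did not all take the sign of their list's median and had overlapping groups, and *Havcr1*, the tubular injury marker, was too dim to be tested. The part of these markers in the differences of the uptake genes was not tested.

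**Figure D3:**
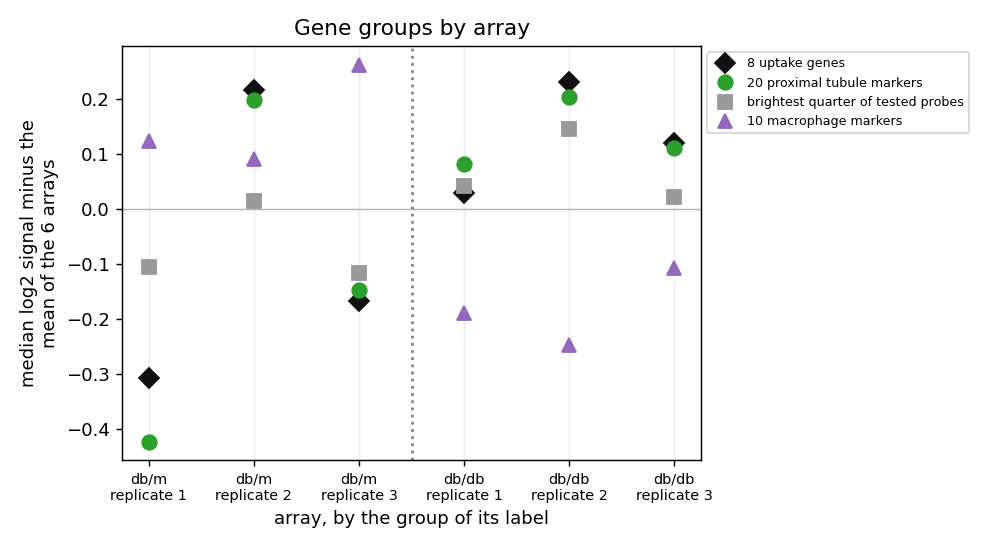
Median log2 signal of a gene group on each array, minus the mean of the 6 arrays (vertical axis), by array (horizontal axis), with the dotted line between labelled db/m and labelled db/db. Black diamonds are the 8 uptake genes, green circles 20 proximal tubule markers, grey squares the brightest quartile of tested probes and purple triangles 10 macrophage markers. The diamonds stay close to the circles on every array, from -0.31 on labelled db/m replicate 1 to 0.23 on labelled db/db replicate 2, and the triangles are above 0 in labelled db/m and below 0 in labelled db/db.

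The count of uptake genes moved most with the omission of replicate 2 of labelled db/m. Without it, 5 of 8 genes (*Lrp2*, *Amn*, *Dab2*, *Fcgrt* and *Lrpap1*) had an unadjusted p under 0.05, all lower in labelled db/m, when 13.3% of all genes had such a p with the lower mean there. The groups did not overlap for 7 of 8, 6 lower and *Ocrl* higher, when 47.9% of all genes did not overlap. *Amn* then differed by -0.60 (adjusted p = 0.0991 by limma) and *Dab2* by -0.72 (adjusted p = 0.129 by limma), and 0 of 8 passed the adjusted threshold. That array also had the lowest 75th percentile of signal, 765 against 868 to 1030 on the others. With no scaling between arrays *Lrp2*, *Amn*, *Fcgrt* and *Lrpap1* had groups that did not overlap, when 18.7% of all genes did not overlap. The brightest *Lrp2* probe then read 17.01, 16.96 and 17.00 in labelled db/m against 17.15, 17.31 and 17.30 in labelled db/db. Its neighbour A_66_P137745 overlapped in both settings, with a difference of 0.086 unscaled and -0.054 without replicate 2 of labelled db/m.

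The scaling moved all 8 genes together. The median difference was -0.23 relative to the 75th percentile, -0.42 after median centring, which moved the median of all genes to -0.23, and -0.031 relative to the proximal tubule markers, which moved it to 0.16. Among all genes with an unadjusted p under 0.05, the split moved too: 15.2% of genes had such a p and 9.77% had it with the lower mean in labelled db/m, against 20.9% and 18.3% after median centring and 11.1% and 1.07% relative to the proximal tubule markers. All but quantile normalization subtract 1 value per array and so move every gene by the same amount. *Cubn* and *Clcn5* lay on either side of 0 depending on the scaling.

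**Figure D4:**
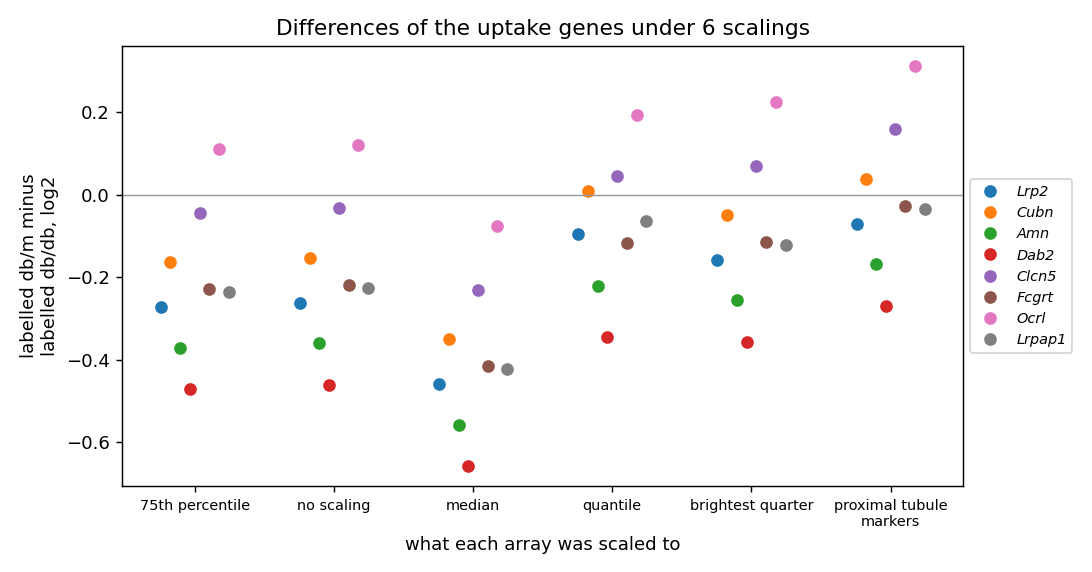
Log2 level in labelled db/m minus that in labelled db/db (vertical axis) for the brightest probe of each of the 8 uptake genes, by what each array was scaled to (horizontal axis). Points of 1 colour are 1 gene. All points are lowest after median centring and highest relative to the proximal tubule markers, where the 8 genes run from -0.27 for *Dab2* to 0.31 for *Ocrl*.

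The genes that act around these 8 were described in 7 lists of 104 genes, of which 101 were tested. No gene of them passed an adjusted p of 0.05, and 14 had an unadjusted p under 0.05, 13 lower in labelled db/m and *Sorl1* higher, which is 13.9% against the 15.2% of all genes. The lower mean was in labelled db/m for 84 of 101, against 56.6% of all genes tested and 75.6% of those in the brightest quartile of tested probes. The median difference of the 101 was -0.18. The groups did not overlap for 18 of the 101, against 22.9% of all genes.

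Among 16 genes of the clathrin coat and its adaptors 3 had an unadjusted p under 0.05 in limma, or 18.8% against 15.2% of all genes. The clathrin light chains *Clta* and *Cltb* differed by -0.29 (SE 0.11) and -0.37 (SE 0.15). The groups did not overlap for *Clta*, at 5.32, 5.42 and 5.24 in labelled db/m and 5.56, 5.69 and 5.60 in labelled db/db, and overlapped for *Cltb*.

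Of 18 genes of endosomes and recycling, *Inpp5b*, a phosphatase related to OCRL, differed by -0.38 (SE 0.15), and *Rab7*, the GTPase of late endosomes, by -0.42 (SE 0.10, adjusted p = 0.240 by limma). *Rab7* read 3.61, 3.62 and 3.50 in labelled db/m and 4.01, 4.04 and 3.94 in labelled db/db. Every labelled db/m array of *Rab7*, replicate 2 included, was below every labelled db/db array. Of 18 genes of endosomal acidification, the proton pump subunits *Atp6v0d1* and *Atp6v1c1* differed by -0.38 (SE 0.14) and -0.49 (SE 0.13), both without overlap.

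All 15 lysosomal genes had the lower mean in labelled db/m, against 56.6% of all genes and 75.6% of those in the brightest quartile. Of the 15, 3 had an unadjusted p under 0.05 in limma, or 20% against 15.2% of all genes. *Ctsl*, the protease cathepsin L, read 5.98, 6.53 and 6.21 in labelled db/m and 6.73, 7.00 and 6.71 in labelled db/db, a difference of -0.57 (SE 0.17, adjusted p = 0.240 by limma). The lysosomal membrane protein *Lamp2* differed by -0.50 (SE 0.16). The groups of *Ctsl* and *Lamp2* did not overlap.

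Among 12 tested ligands and carriers *Apoe*, an apolipoprotein that megalin binds, had a p under 0.05, at 6.81, 5.94 and 6.12 in labelled db/m and 7.98, 7.00 and 6.97 in labelled db/db, or -1.02 (SE 0.34, adjusted p = 0.245 by limma). Blocking on the slide left -0.15, and its unadjusted p was above 0.05 in 7 of 20 other settings. The 12 tested relatives of megalin in the LDL receptor family were split evenly, 6 lower and 6 higher, with *Lrp3* at -0.34 (SE 0.14) and the sorting receptor *Sorl1* at 0.52 (SE 0.19). *Sorl1* overlapped between the groups, at 3.24, 2.62 and 3.16 in labelled db/m and 2.37, 2.45 and 2.65 in labelled db/db. Of 10 regulators of proximal tubule genes 7 had the lower mean in labelled db/m, with a median difference of -0.13.

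**Figure D5:**
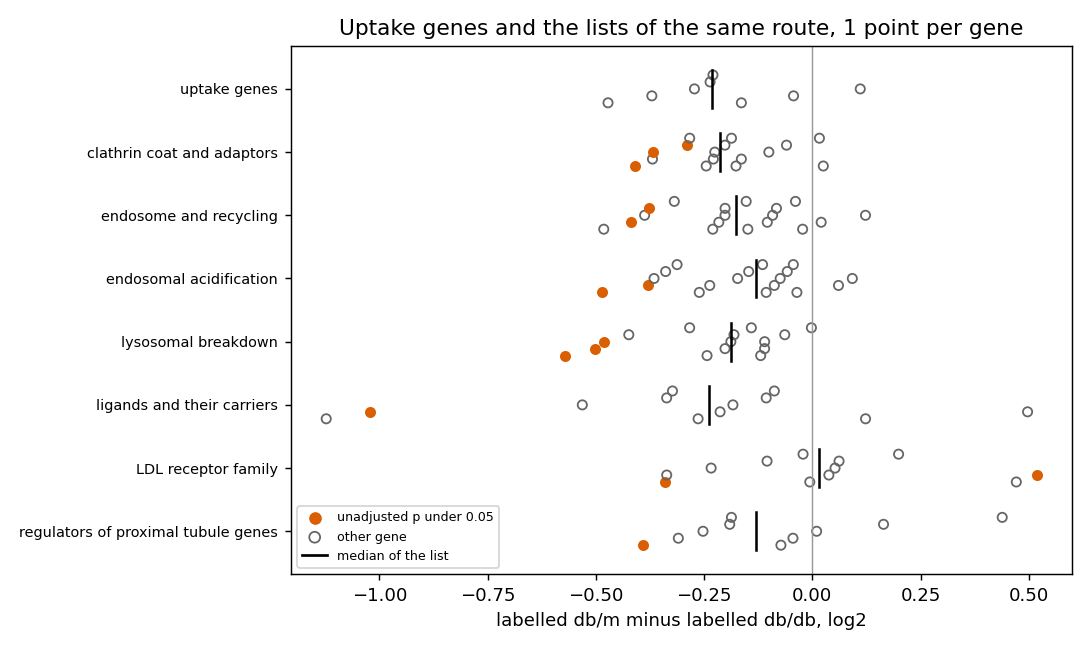
Log2 level in labelled db/m minus that in labelled db/db (horizontal axis) for each tested gene of the uptake genes and of 7 lists around them (vertical axis). Filled points have an unadjusted p under 0.05 in limma and the bar is the median of the list. The uptake genes hold no filled point, the lysosomal genes all lie below 0, and the LDL receptor family lies on both sides of it.

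The genes whose array pattern lay closest to *Lrp2*, by the mean absolute difference of centred log2 levels over the 6 arrays among 15482 genes, were *Tmbim4*, *Vps41*, *Poldip2*, *Rbpms2* and *Csnk2b*, at 0.014 to 0.019. Those closest to *Cubn* included *Akt1s1*, *Hnf4a*, *Mrpl37* and *Cltrn*, at 0.021 to 0.025. With 6 arrays many genes share such a pattern, and none of the other uptake genes was among these.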

How the data were processed

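Per the labels, total RNA of renal cortex (RNA integrity number above 7) was hybridised to one-colour arrays and read with Agilent Feature Extraction 10.7.1.1. The authors deposited for each array the spot intensity after background subtraction, with no normalization between arrays, and a matrix of log2 values whose normalization is not given in the sources used here. The file of labelled db/m replicate 1 had been saved again with rounded signals and 71 changed gene names, so that names were taken from another file.

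In R 4.3.3, control and outlier spots were left out, spots of a probe averaged (56470 probes, 135 lost to outlier flags), and the 75th percentile of each array subtracted on the log2 scale. The test took the 29889 probes that stood well above background in every array of either group. Groups were compared by lmFit and eBayes of limma 3.58.1, two-sided, with Benjamini-Hochberg adjustment over all tested probes, after a check on simulated data. The labels do not say that the arrays of a group came from separate mice. The study's text names 3 treated and 3 untreated db/db mice as the source of RNA, which is not the labelled comparison. The p-values measure only the spread between these samples, which may be technical if the mice were not separate. Precision is limited by the number of arrays. Median intensity ran from 76.0 to 112 and 51.6% to 59.0% of probes were well above background.

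The brightest tested probe stood for a gene. Named were all probes of the 8 genes, list genes with an unadjusted p under 0.05, fixed defining markers and the 5 genes most like *Lrp2* and *Cubn*. Some genes that this rule covers are not reported here and stay in the counts. The members, though matched by name alone, and the lists were chosen with earlier results of these data known. Symbols came from RefSeq by accession (32903 probes) or from the files. Slide 1 held replicate 1 of labelled db/m with replicate 3 of labelled db/db, slide 2 the other labelled db/m arrays and slide 3 the other labelled db/db arrays. Each slide had a scan date of its own. Outside slide 1, a difference between the groups therefore cannot be told apart from one between slides or scans. Alternatives were quantile normalization, median centring, normexp with an offset of 50, other filters, trend and robust variance, and an equal-variance t-test. Further ones were slide or replicate blocks, the deposited matrix, the mean over probes, and each array left out. The study's text names no t-test. It names one-way ANOVA for its work as a whole, which for a single pair of groups equals this t-test.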

Additional observations from a re-analysis of the deposited data

How the results depend on the processing

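The median difference of the 8 uptake genes was below 0 in all 22 alternative settings, from -0.42 to -0.031. Settings that changed only the test, the probe filter, the replicate block or dim arrays could not move it from -0.23. They leave the signals of these probes as they are. The slide as a block repeats the difference within slide 1. No uptake gene passed an adjusted p of 0.05 or the fold screen in the 21 settings that gave one. The count of uptake genes with an unadjusted p under 0.05 was 0 in the chosen fit, 3 after median centring (*Lrp2*, *Amn* and *Dab2*), 1 with the slide as a block (*Dab2*), 1 with the mean over probes (*Ocrl*, 0.39, which takes in the dim probe that passed the filter only through labelled db/m), and 0 to 5 with 1 array left out. For the other pathway genes it was 14 in the chosen fit, 29 after median centring, 9 with no filter on dim probes, 5 with the slide as a block and 5 to 32 with 1 array left out. Of labelled db/m, leaving out replicate 1, 2 or 3 gave 7, 32 or 5, and of labelled db/db, leaving out replicate 1 or 2 gave 9 or 6. Of the named ones, an unadjusted p above 0.05 was found in 13 of 20 settings for *Lrp3*, 11 for *Clta*, *Cltb* and *Inpp5b*, 9 for *Atp6v0d1*, 8 for *Sorl1*, 7 for *Apoe*, 5 for *Lamp2*, 2 for *Rab7* and *Atp6v1c1* and 0 for *Ctsl*, with no change of sign. Differences changed sign for *Cubn* (0.0087 with quantile normalization and 0.0085 in the deposited matrix), for *Clcn5* (0.0447 with quantile normalization, 0.0417 in the deposited matrix, and from -0.19 to 0.0732 with 1 array left out, above 0 when that array was replicate 1 of labelled db/m or, at 0.0167, replicate 3 of labelled db/db) and for *Ocrl* (-0.0763 after median centring). Between the 2 arrays on slide 1, which have no replicate, *Amn* differed by -0.66, *Dab2* by -0.95, *Clcn5* by -0.40 and *Fcgrt* by -0.41, and the median of the 8 genes was -0.41.

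The alternatives chosen after seeing the data were no scaling, scaling to the proximal tubule markers and scaling to the brightest quartile of probes. With no scaling 2 uptake genes (*Amn* and *Dab2*) had an unadjusted p under 0.05. Relative to the proximal tubule markers *Cubn* was 0.0378 and *Clcn5* 0.158, and 3 other pathway genes had such a p. Relative to the brightest quartile *Clcn5* was 0.0707.

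Replicate numbers are shared between the groups. The deviations of same-numbered arrays correlated at 0.35, 0.15 and 0.05, and those of arrays with unlike numbers at -0.34 to 0.15. Deviations were taken from the mean of only 3 arrays per group, so these values cannot decide whether the numbers pair the arrays. With the replicate block, 2 uptake genes (*Lrp2* and *Dab2*) and 23 other pathway genes had an unadjusted p under 0.05.

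Leaving out replicate 2 of labelled db/m let 92 of all genes pass the adjusted threshold, and leaving out replicate 3 of labelled db/db let 38 pass. The cause of these shifts was not tested. Dim probes, as the second *Ocrl* probe, have only a bound where they are not well above background.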
